A study of Saccharomyces cerevisiae with 6 samples.

Results

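Yeast cells lacking both FHL1 and IFH1 were compared with wild type (WT) on 2 arrays of each strain. All 6504 probe sets that the platform annotation gives to 1 gene were taken, of 9335 on the array, with the brightest probe set standing for a gene that has several. They gave 5656 genes, of which 4242 were bright enough to test. The series holds 6 Affymetrix arrays of budding yeast, Saccharomyces cerevisiae. Each of 3 strains, WT, FHL1 deleted and both genes deleted, was grown at 30 °C and hybridised to 2 arrays, numbered as a first and a second experiment. The labels used here name no strain background, mating type, medium or clone, and do not say whether the 2 arrays of a group came from separate cultures. The p-values therefore measure the spread between these arrays, and the number of arrays limits the precision. That spread may be technical in WT. In each deletion group the 2 arrays differ in mating type pattern, as described below, so the spread there is not only technical.

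Fhl1 is a forkhead-type protein that sits at the promoters of ribosomal protein genes together with Rap1, and Ifh1 is the coactivator that binds it there. Ifh1 comes and goes with nutrient signals through the TOR and protein kinase A pathways, and it also forms a complex with the casein kinase CK2, Utp22 and Rrp7, which act in ribosomal RNA processing. Ribosomal protein messages are among the most abundant of a growing yeast cell. In many slow-growth and stress states they fall while messages for stress proteins rise.

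IFH1 itself read 8.38 and 8.63 (scaled log2 signal, first and second experiment) in WT and did not rise above the floor of 5.63 on either array of the double deletion. IFH1 was thus at least 7.35-fold lower than in WT, with an adjusted p of 0.000408 by limma. FHL1 could not be tested, since all 6 arrays lay below that floor. Its deposited log2 values were 4.91 and 5.02 in WT against 2.66 and 2.89 in the double deletion, and values below the floor carry no order. HIS3, an enzyme of histidine synthesis that is also a common selectable marker in strain building, rose from 7.13 and 6.99 to 10.23 and 10.02. Its difference of 3.06 (log2, SE 0.15) was 8.36-fold, and the FHL1 deletion arrays, at 10.06 and 10.24, lay as high.

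Of the 12 chromosome neighbours, within 2 genes of FHL1, IFH1 and HIS3, 11 had a probe set of their own, and RPL11A near FHL1 did not. PRE2, next to FHL1 and a catalytic subunit of the proteasome core, read 10.32 and 10.80 in WT and 8.07 and 8.16 in the double deletion, a difference of −2.44 on the log2 scale (SE 0.20, adjusted p = 0.00141). PRE2 was also low in the FHL1 deletion, at 8.61 and 8.27. On the other side of FHL1, COG4 differed by 0.01 (adjusted p = 0.962). After IFH1 in chromosome order, UCC1 rose by 0.66 (adjusted p = 0.046) and YLR225C by 0.73 (0.0265), while UTP13 before it differed by 0.10 (0.775). BFR1 near HIS3 fell by 0.76 (adjusted p = 0.0346). The calls of UCC1, YLR225C and BFR1 were each lost when any of the 4 arrays was left out, with adjusted p up to 0.208. Whether the deletions act on their neighbours was not tested.

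The arrays differ in ways that the groups do not set. The second double-deletion array carried the pattern of a MATa cell and the other 3 that of a MATalpha cell, which are the mating types of haploid yeast. MFA1, which encodes the a-factor pheromone, read 7.30 and 7.26 in WT and 7.86 and 12.83 in the double deletion. MF(ALPHA)1, the alpha-factor gene, read 12.87 and 12.09 in WT and 12.84 and 6.96 in the double deletion. STE3, the receptor that MATalpha cells carry, followed with 10.75, 10.05, 10.54 and 5.88. In the FHL1 deletion, which shares the fit, the first array was of the MATa kind (MFA1 12.87, MF(ALPHA)1 6.89) and the second of the MATalpha kind (7.79 and 12.999). None of the 4 tested MATa genes and 5 tested MATalpha genes passed the test, and their median differences were 0.13 and −0.21 in the first experiment but 3.87 and −4.18 in the second. Many counts below, but not all, are therefore also given without the second double-deletion array. The part of mating type in the other genes was not tested. The first WT and first double-deletion arrays shared 573 exactly equal values, against 0 between the second WT and second double-deletion arrays. The second FHL1 deletion array shared 502 with that WT array and 859 with that double-deletion array. Deletion arrays of this set were thus of the MATalpha kind and those outside it of the MATa kind. Set and mating type cannot be told apart among the deletion arrays. The median of 9 bacterial control probe sets was 8.45 and 8.37 in WT and 7.88 and 7.39 in the double deletion. For ACT1, the 3′ probe set exceeded the 5′ one, a gap that widens when RNA is broken, by 0.97 and 0.93 in WT and by 1.07 and 1.02 in the double deletion. The same gap was 0.98 and 1.12 against 1.23 and 1.14 for SPT15, and 2.25 and 1.52 against 2.70 and 1.89 for SRB4. The median of 10 ribosomal RNA control probe sets was 6.11 and 9.90 in WT and 5.80 and 6.76 in the double deletion. The part of these features in the results was not tested.

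In all, 422 genes rose and 360 fell in the double deletion against WT, which is 9.95% and 8.49% of the 4242 tested, or 18.4% together. The counts of each list below stand beside these shares. A change over 2-fold was seen in 113 of the genes that rose and 93 of those that fell. The median difference was 0.77 among the genes that rose and −0.77 among those that fell. Every called gene had arrays that did not overlap between the groups, and so had to move the same way in both experiments. The same lack of overlap held for 60.9% of all genes tested, so it says little of a gene. Of the calls, 54% were rises, and with the deposited scaling, which shifts the median of all genes by 0.09, 66% were. Leaving out single arrays changed the counts most: 135 rose and 91 fell without the first WT array, and 80 and 77 without the second. Without the first double-deletion array 178 rose and 150 fell, and without the second 135 and 153. Of the 422 and 360 genes, 131 and 137 were among the calls made without the second double-deletion array. With a block that sets the arrays sharing equal values apart from the rest, 823 rose and 765 fell, and these held all 422 and all 360.

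**Figure D1:**
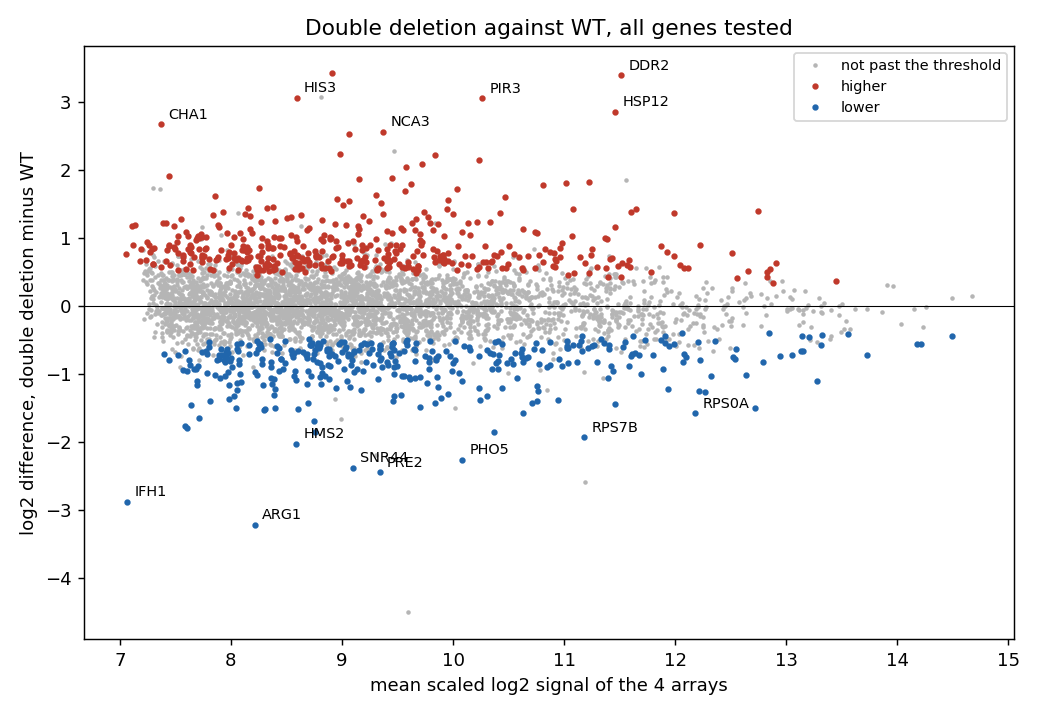
The log2 difference, double deletion minus WT, of each of the 4242 genes tested (vertical axis) against its mean scaled log2 signal over the 4 arrays (horizontal axis), with genes past the threshold in red (422 higher) and blue (360 lower). Calls are found at all signal levels, and the named points run from 3.40 for DDR2 to −3.22 for ARG1.

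The 15 largest rises ran over genes of several roles. DDR2, a stress-responsive gene, read 10.16 and 9.48 in WT and 13.08 and 13.35 in the double deletion, which is 10.5-fold (log2 difference 3.40, SE 0.22, adjusted p = 0.00057). PIR3, a protein covalently bound in the cell wall, read 8.89 and 8.58 against 11.61 and 11.98, a rise of 3.06 (SE 0.19, adjusted p = 0.000552). HSP12, a small membrane-associated heat shock protein, read 10.69 and 9.38 against 12.90 and 12.88. The lower array of the double deletion lay well above the higher WT array in each of these, although the WT arrays of HSP12 lay more than 1 log2 unit apart. CHA1, the deaminase that breaks down serine and threonine, read 5.94 and 6.14 in WT, close to the floor, and 8.86 and 8.56 in the double deletion. NCA3, a member of the SUN family, rose by 2.56, the cytochrome c oxidase subunit COX26 by 2.08, the polyamine exporter TPO2 by 2.05 and PCL1, a cyclin of the Pho85 kinase, by 1.89. MNC1, CPP3 and YBR085C-A rose by 2.53, 2.22 and 2.14. All these calls held with each array left out in turn, at adjusted p up to 0.0336.

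Other genes of this size rested on fewer arrays. SNZ1 and SNO1, which make vitamin B6, rose by 2.24 and 1.92, and lost the call without either WT array or the first double-deletion array (adjusted p up to 0.175 and 0.104). YDR034C-A had the largest difference, 3.43, with 7.29 and 7.11 in WT and 11.91 and 9.34 in the double deletion. It is 1 of 7 probe sets of that gene, another moved the opposite way, and the call was lost without either WT array (adjusted p up to 0.0971). Over all calls, 72 genes had several probe sets and in 16 of these another probe set had the opposite sign.

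The largest fall was in arginine synthesis. ARG1, argininosuccinate synthetase, read 10.33 and 9.32 in WT and 6.47 and 6.75 in the double deletion, 9.30-fold lower (log2 difference −3.22, SE 0.31, adjusted p = 0.00221). HMS2, a gene related to heat shock factors, read 9.43 and 9.76 against 7.61 and 7.54. HXT4, a high-affinity glucose transporter, fell by 1.85, PET117, which helps assemble cytochrome c oxidase, by 1.76, and ECL1 by 1.68. GIT1, which takes up glycerophosphoinositol, fell by 1.64 and YHI9 by 1.52. These kept their calls with each array left out, at adjusted p up to 0.0454. PHO5, the secreted acid phosphatase, did not. It read 11.27 and 11.15 in WT and 8.16 and 9.75 in the double deletion, so both double-deletion arrays were low but the second was much less so. The fall of 2.26 lost its call without either WT array (adjusted p up to 0.0887). RDN37-1, the ribosomal RNA precursor, read 11.49 and 11.10 against 9.38 and 9.52. Its call was lost without either WT array or the first double-deletion array (adjusted p up to 0.102), and another probe set of the gene had the opposite sign.

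**Figure D2:**
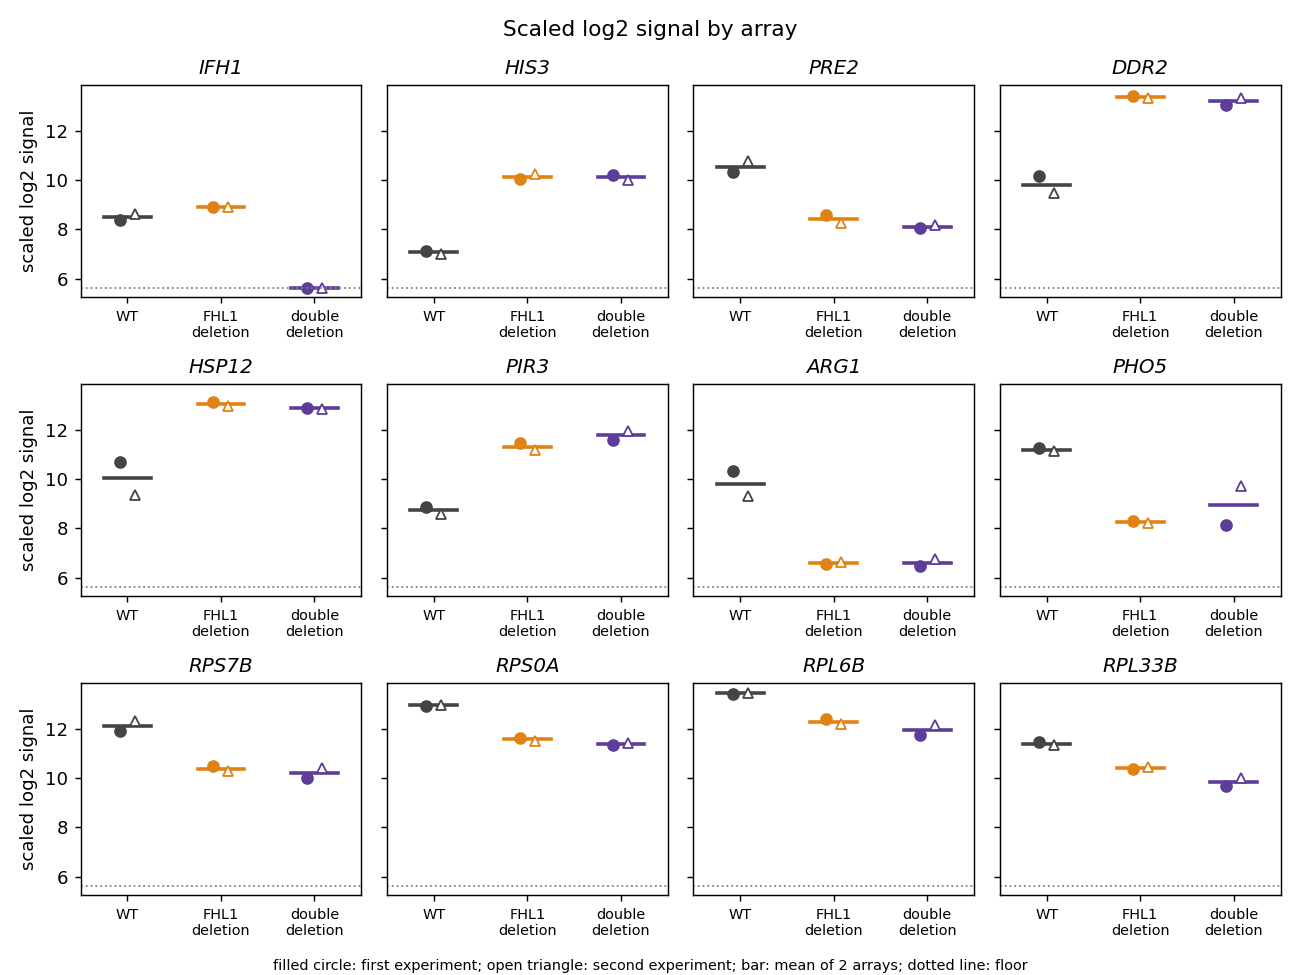
Scaled log2 signal (vertical axis) of 12 genes on each of the 6 arrays, by strain, with a filled circle for the first experiment, an open triangle for the second, a bar for the mean of 2 arrays and a dotted line at the floor of 5.63. IFH1 lies at the floor in the double deletion alone, while DDR2, HSP12, PIR3 and HIS3 are higher and ARG1, PHO5, PRE2 and 4 ribosomal protein genes lower than in WT in both deletion strains.

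Cytosolic ribosomal protein genes are the textbook targets of Fhl1 and Ifh1, and the calls among them went one way. Of 81 with a probe set of their own, 40 fell and none rose, with a median difference of −0.48 against 0.01 over all genes tested. Among 47 large subunit genes 22 fell (46.8%, median −0.49), and among 34 small subunit genes 18 fell (52.9%, median −0.43). No set test was made, and a further 34 large subunit and 23 small subunit genes lacked a probe set of their own. The medians by experiment were −0.63 and −0.40 for the large subunit, and −0.43 and −0.44 for the small one. The large subunit count was 8 without either WT array, 11 without the first and 21 without the second double-deletion array. For the small subunit these counts were 11 and 7 without the first and second WT array, and 12 and 15 without the first and second double-deletion array.

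Single genes ran from RPS7B, at −1.93, to RPL15B, at 0.25. RPS7B read 11.95 and 12.35 in WT and 10.02 and 10.41 in the double deletion, 3.81-fold lower (SE 0.20 on the log2 scale, adjusted p = 0.00249). RPS0A read 12.95 and 13.00 against 11.34 and 11.45, a fall of 1.58 (SE 0.12, adjusted p = 0.00089). The arrays of each group lay close together there. The difference was −1.57 for RPL33B, −1.497 for RPL6B, −1.43 for RPS22B, −1.39 for RPL27B, −1.32 for RPS26B, −1.31 for RPL22B and −1.26 for RPL31B, and each fall kept its call with any array left out (adjusted p up to 0.0438). RPS7A fell by 1.25 but lost the call without either WT array (adjusted p up to 0.0698). At the other end, RPL3 differed by 0.01, RPL10 by 0.12, RPS12 by 0.02, RPS31 by 0.03 and RPS3 by −0.04, and none of these passed the test. RPL3 read 12.13 and 11.94 in WT and 12.04 and 12.06 in the double deletion, with the groups overlapping.

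Most yeast ribosomal proteins are encoded by a pair of near-identical genes, and the copies did not always move alike. Both copies were tested in 31 pairs: both fell in 13, the A copy alone in 5, the B copy alone in 4 and neither in 9. A copies had a median of −0.52 (18 of 31 fell) and B copies of −0.56 (17 of 31 fell), and the B copy lay lower in 18 pairs. Genes without a second copy fell in 5 of 19 cases, with a median of −0.27. RPL22B, at −1.31, lay 1.09 below RPL22A, at −0.22, and both have probe sets of the plain kind. RPS7B lay 0.69 below RPS7A on probe sets of the same kind. RPL33, RPL9 and RPS26 also had copies far apart. Both RPL33 probe sets have a suffix that marks shared sequence, so signal from the other copy cannot be told apart there. RPL9 and RPS26 have at least 1 probe set with another suffix, and whether the other copy adds to its signal was not tested. The differences between copies were not tested.

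**Figure D3:**
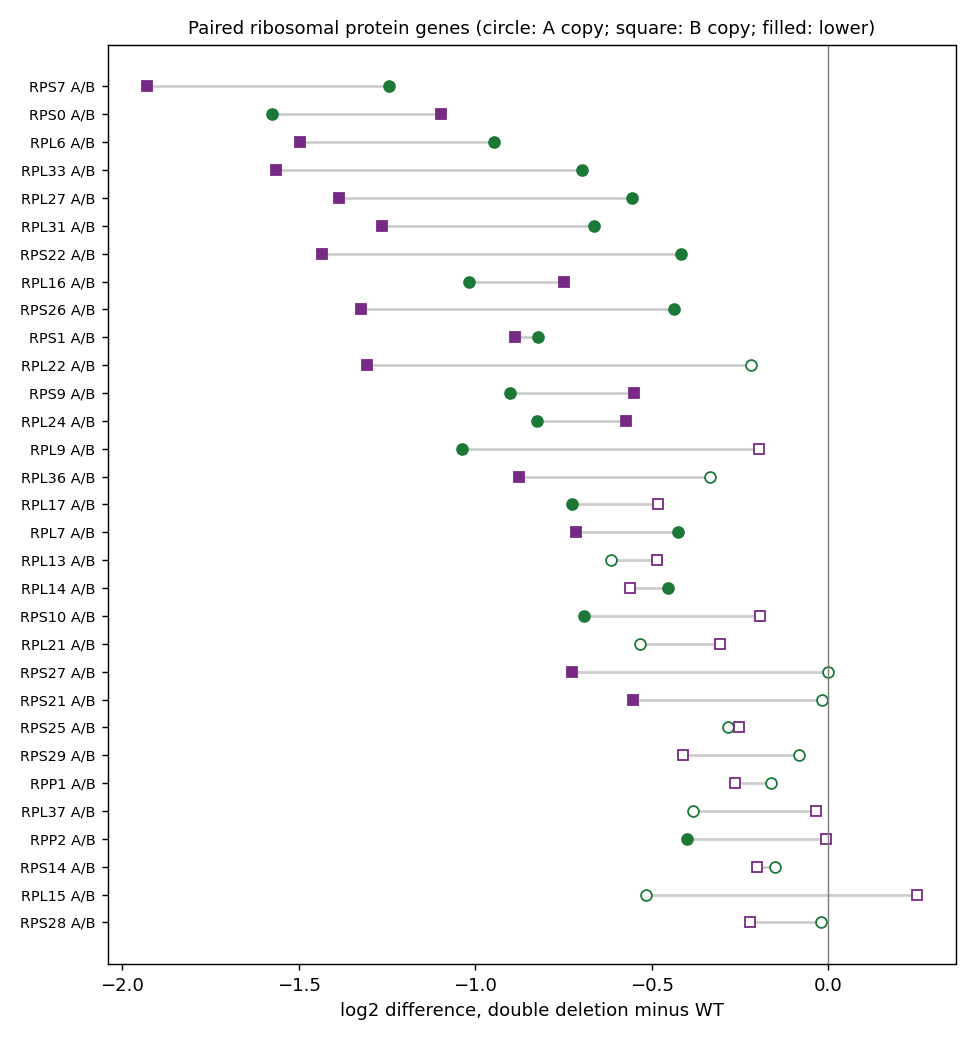
The log2 difference, double deletion minus WT, of both copies in 31 ribosomal protein gene pairs, with circles for A copies, squares for B copies and filled symbols for genes that fell. Copies lie below 0 except for RPL15B at 0.25, and the gap is wide for RPL22, RPS22, RPS26, RPL33 and RPL9.

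Probe sets that name several ribosomal protein genes stand for 74 genes that were mostly left out of the counts above. Of these 59 probe sets, 54 lay below 0, beside 2099 of the 4242 genes tested. Their median was −0.46, with a range from −1.57 to 0.20. The arrays of the groups did not overlap in 49, beside 60.9% of all genes tested. Among all 311 probe sets that name several genes, fitted apart in limma, 5 were lower and 3 higher. That fit had its own filter, trend and adjustment over 2078 probe sets, of which 1767 name no gene. Only 12 of the 2078 were higher and 37 lower, so its counts are not on the footing of the gene counts. Most of the 59 shared the sign of the tested genes, and at most 5 fell past the threshold of that fit. Whether they fell less than the tested genes was not tested.

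Among 14 tested regulators of ribosomal protein genes, IFH1 was the 1 that fell and 2 rose. YAK1, a kinase that acts opposite to protein kinase A, rose by 0.83, and ESA1, the histone acetyltransferase found at these promoters, by 0.54. The calls of YAK1 and ESA1 were lost with 3 and 4 of the arrays left out, at adjusted p up to 0.194. RAP1 differed by −0.06, SFP1 by 0.37, HMO1 by −0.30 and SCH9 by 0.41, and none passed. UTP22, the partner of Ifh1 in its CK2 complex, read 9.85 and 9.97 in WT and 9.10 and 8.94 in the double deletion. It was the 1 called member among 6 of that complex, and the call was lost without the second WT array or the second double-deletion array. UTP22 has 6 probe sets, and with the mean of all probe sets for each gene no member of the complex was called.

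Genes that build ribosomes leaned the other way from genes that encode their proteins. The 55 tested members of the small subunit processome had a median of 0.19, with 2 rises and no fall, and 42 of them lay above 0. The 71 tested large subunit assembly factors also had a median of 0.19, with 6 rises and no fall, 61 of them above 0. CGR1 rose by 0.76, SSF1 by 0.73, NOP15 and RLP24 by 0.66 and 0.65, RPF1 by 0.63, RRT14 by 0.77 and FCF1 by 0.56. Each of these calls was lost on leaving out 3 or 4 of the arrays (adjusted p up to 0.205). The share of calls in both lists was below the 9.95% of all genes, while most members had the same sign. With the block on arrays that share equal values, 8 of the 55 and 18 of the 71 rose, beside 823 of the 4242. The large subunit share was then above that of all genes and the processome share still below it. RNA polymerase I factors RRN3 and RRN7 rose by 0.65 and 0.67 and RRN5 fell by 0.64, of 14 tested. RPC34, a subunit of RNA polymerase III, rose by 0.82, as the 1 call among 20. These 4 calls were lost without any of the 4 arrays, at adjusted p up to 0.162.

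Mitochondrial ribosomal protein genes had more falls than the 8.49% over all genes. Of 67 genes listed under that name, 26 fell and 1 rose (MRP8), with a median of −0.49 and 61 below 0. What each listed gene encodes was not checked. MRP4 read 8.68 and 8.63 in WT and 7.41 and 7.65 in the double deletion, a fall of 1.12 (SE 0.15, adjusted p = 0.00614), and RML2 fell by 1.04. MRP4 and RML2 kept their calls with each array left out (adjusted p up to 0.0489), but the list's 26 came to 2 and 5 without the first and second WT array, and to 8 and 5 without the double-deletion arrays. Among 23 aminoacyl-tRNA synthetase genes, whose products charge tRNAs, 5 fell and 22 lay below 0, with a median of −0.39. CDC60, the leucyl-tRNA synthetase, read 10.45 and 10.05 in WT and 9.37 and 9.28 in the double deletion. VAS1 fell by 0.80, DED81 by 0.61, GLN4 by 0.56 and YHR020W by 0.51. The 5 calls came to 0 or 1 with any array left out. Translation factors had 2 falls of 34, a share below that of all genes, with a median of −0.15 and 25 below 0. ANB1 fell by 0.81 and TEF4 by 0.57, and neither call held with each array left out. With the block on arrays that share equal values, 7 translation factors and 16 synthetase genes fell, beside 765 of all 4242 genes. The share of translation factors was then not below that of all genes.

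**Figure D4:**
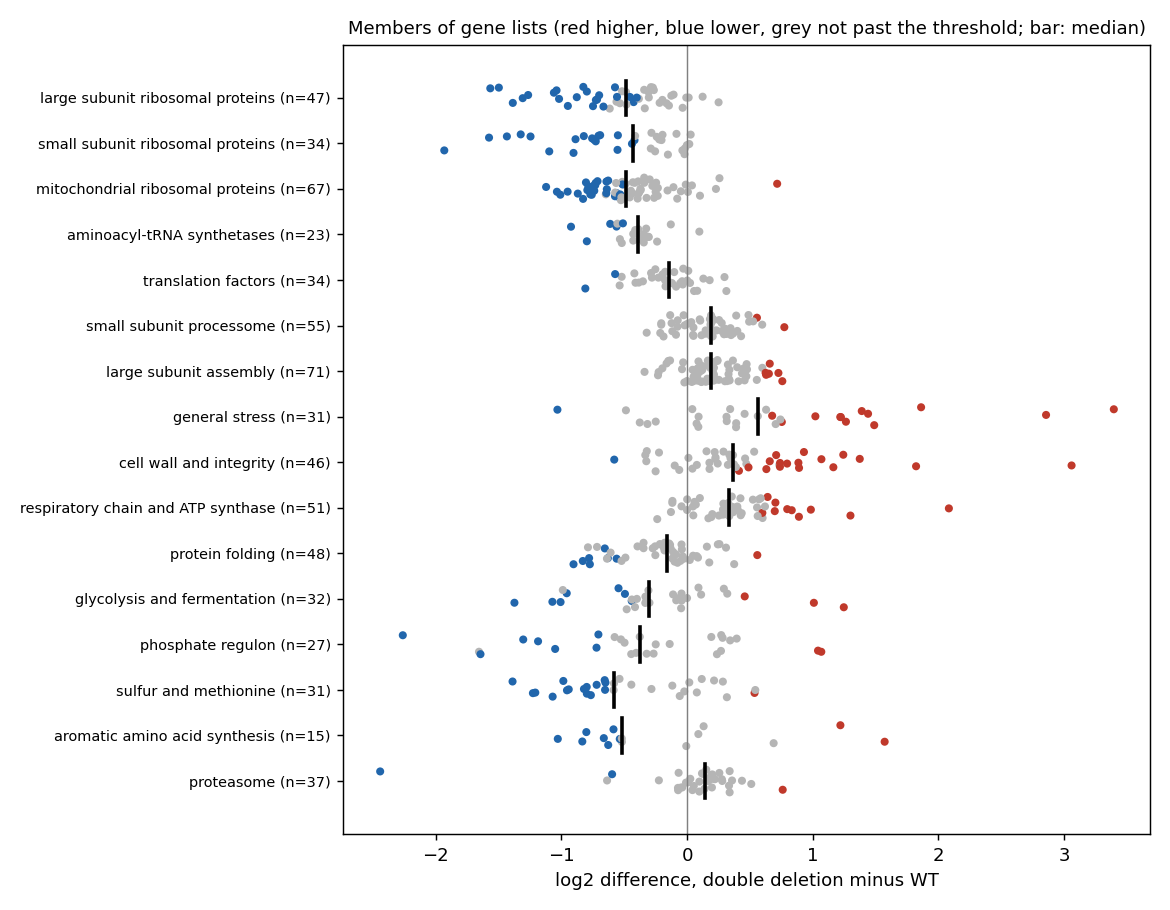
Each dot is the log2 difference, double deletion minus WT, of a tested gene in 16 gene lists, red if it rose, blue if it fell and grey if it did not pass, with a bar at the list's median. Medians run from −0.58 for sulfur and methionine genes to 0.56 for general stress genes, and ribosomal protein lists lie left of 0 while ribosome assembly lists lie right of it.

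General stress genes, many of them targets of the activators Msn2 and Msn4, made up the list with the highest median among those in the plot. Of 31 tested, 12 rose and 1 fell, or 38.7% and 3.23% beside 9.95% and 8.49% of all genes. The median was 0.56, and the medians by experiment were 0.27 and 0.87. Besides DDR2 and HSP12, RTC3 read 8.41 and 8.04 in WT and 10.16 and 10.01 in the double deletion, a rise of 1.86 (SE 0.17, adjusted p = 0.00203). SPI1, a protein of the cell wall, rose by 1.49, GPX1, a glutathione peroxidase, by 1.44 and CTT1, the cytosolic catalase, by 1.39. GRE2, a reductase of methylglyoxal, fell by 1.03, and HSP26, at 0.63, did not pass. MSN2 and MSN4 differed by 0.34 and 0.09 and did not pass. The 12 rises came to 9, 9, 11 and 9 without the first WT, second WT, first and second double-deletion array. In the list of trehalose and glycogen genes 3 rose and 2 fell of 16, or 18.8% and 12.5%. TSL1, of the trehalose synthase complex, rose by 0.81 and NTH1, a trehalase, by 0.57, whereas PGM1, a phosphoglucomutase, fell by 1.01 and GSY1, a glycogen synthase, by 0.72. Those 4 calls were each lost without either WT array (adjusted p up to 0.207). GSC2, a stress-induced glucan synthase that also stands in this list, rose by 1.15 and kept its call.

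Of 48 protein folding genes 7 fell and 1 rose, or 14.6% and 2.08% beside 8.49% and 9.95% of all genes, with a median of −0.16. The 7 falls came to 1, 1, 4 and 2 without the first WT, second WT, first and second double-deletion array, and the rise to 0. HSP82, the inducible Hsp90, read 11.65 and 11.77 in WT and 10.76 and 11.002 in the double deletion. KAR2 and LHS1, Hsp70 proteins of the endoplasmic reticulum, fell by 0.78 and 0.90, SSA2, a cytosolic Hsp70, by 0.65 and MGE1 of mitochondria by 0.77. All 5 calls were lost without 3 or 4 of the arrays, at adjusted p up to 0.157. In redox defence 4 of 28 fell and 2 rose, or 14.3% and 7.14% beside 8.49% and 9.95% of all genes. Among the falls were OYE3 by 1.24 and GSH1 by 1.07, and the rises were TRX3 by 0.997 and GRX1 by 0.58. The 4 falls came to 0, 2, 1 and 0 without the first WT, second WT, first and second double-deletion array, and the 2 rises to 1, 0, 1 and 0. CCS1, the copper chaperone of superoxide dismutase, fell by 0.78. None of these 5 calls held with each array left out (adjusted p up to 0.184).

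Cell wall genes rose as well. Of 46 tested 17 rose and 1, UTR2, fell, or 37% and 2.17% beside 9.95% and 8.49% of all genes. The median was 0.37, with medians of 0.29 and 0.46 by experiment. PUN1, a membrane protein, read 10.32 and 10.31 in WT and 12.02 and 12.25 in the double deletion, a rise of 1.82 (SE 0.13, adjusted p = 0.00089). YPS3, a cell surface protease, rose by 1.37, NCW2, a wall protein, by 1.16, and SLT2, the kinase of the cell wall integrity pathway, by 1.24. WSC2 and WSC3, sensors of that pathway, rose by 0.80 and 1.07, and RLM1, its transcription factor, by 0.71. FKS1, the main glucan synthase, differed by 0.18, PIR1 by 0.01 and MID2 by 0.35, none of which passed. PUN1, YPS3 and NCW2 kept their calls with each array left out, and SLT2 lost its call without the second WT array (adjusted p = 0.0587). The list's 17 rises came to 9 and 5 without the first and second WT array, and to 11 and 8 without the first and second double-deletion array.

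Genes of the respiratory chain and ATP synthase rose in 10 of 51 cases, 19.6% beside 9.95% of all genes, and fell in none. The median was 0.34, and 45 lay above 0. CYB2, a lactate dehydrogenase that feeds cytochrome c, read 7.999 and 7.70 in WT and 9.22 and 9.08 in the double deletion, a rise of 1.30 (SE 0.17, adjusted p = 0.00555). Both cytochrome c genes rose, CYC7 by 0.99 and CYC1 by 0.80, as did ATP7 by 0.89 and COX7 by 0.83. The activator subunit HAP4 differed by 0.10 and did not pass. CYB2 and COX26 kept their calls, while CYC7, ATP7 and COX7 lost them without 3 of the arrays (adjusted p up to 0.173). The number of rises dropped with each array left out, most without the second WT array or the second double-deletion array. The rises over all genes dropped as well, while the stress list kept most of its rises. With the block on arrays that share equal values, 22 respiratory genes rose, beside 823 of all 4242 genes.

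Glycolysis and fermentation genes gave 7 falls and 3 rises of 32, beside 8.49% and 9.95% over all genes. Their median was −0.30, but −0.16 with quantile normalization and −0.20 without the second double-deletion array, and with any array left out 3 fell. ADH5, an alcohol dehydrogenase, read 8.70 and 8.64 in WT and 7.35 and 7.24 in the double deletion. EMI2, a relative of glucokinase, fell by 1.07 and HXK2, the main hexokinase on glucose, by 1.01. PCK1, the enzyme that begins glucose synthesis, rose by 1.25, and FBP26, a fructose-2,6-bisphosphatase, by 1.01. MDH2, the cytosolic malate dehydrogenase also used in glucose synthesis, read 8.62 and 8.83 against 10.48 and 10.34, a rise of 1.69. The mitochondrial enzymes IDP1 and LSC2 fell by 1.30 and 0.66. Of 8 hexose transporters tested 3 fell, HXT4, HXT1 by 0.62 and HXT3 by 0.50, and 1 fell with any array left out. ADH5, EMI2, MDH2 and HXT4 kept their calls with each array left out. HXK2 and PCK1 lost theirs without the second WT array (adjusted p = 0.0609 and 0.0652), and FBP26, IDP1, LSC2, HXT1 and HXT3 without 3 or 4 of the arrays (up to 0.207).

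Sulfate assimilation and methionine synthesis held the lowest median of the lists in the plot. Of 31 tested 15 fell and 1 rose, or 48.4% and 3.23% beside 8.49% and 9.95% of all genes. The median was −0.58, with medians of −0.69 and −0.39 by experiment. MET5, a subunit of sulfite reductase, read 11.02 and 10.86 in WT and 9.48 and 9.62 in the double deletion, 2.62-fold lower (SE 0.15 on the log2 scale, adjusted p = 0.00249). MET17, which builds homocysteine from sulfide, read 12.54 and 12.57 against 11.24 and 11.41, and MET3, ATP sulfurylase, fell by 1.07. MET6, methionine synthase, fell by 1.21, and SAM2, which makes S-adenosylmethionine, by 0.98. MET30, which restrains the pathway's activator Met4, was the gene that rose, by 0.54. MET4 itself differed by −0.02 and did not pass. MET5, MET17 and MET3 kept their calls, and MET6 and SAM2 lost theirs without either WT array or the first double-deletion array (adjusted p up to 0.139). The 15 falls came to 3, 4, 5 and 7 without the first WT, second WT, first and second double-deletion array.

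Among other amino acid pathways, 7 genes of the aromatic list fell and 2 rose of 15, with a median of −0.52. The 7 came to 1 and 2 without the first and second WT array, and to 3 without either double-deletion array. ARO2, chorismate synthase, read 12.80 and 12.86 in WT and 11.79 and 11.82 in the double deletion, and ARO4, at the head of the pathway, fell by 0.83. The 2 that rose, ARO10 by 1.57 and ARO9 by 1.22, are enzymes that break aromatic amino acids down. In serine and glycine metabolism 4 of 12 rose and 2 fell: CHA1, the glycine cleavage genes GCV1 and GCV3, by 1.43 and 1.40, and AGX1, by 1.02, were higher, and SER33, which starts serine synthesis, fell by 0.70. ARG4 and ARG7 fell by 0.93 and 0.96 besides ARG1, while the regulators ARG80 and ARG81 rose by 0.71 and 0.79, in a list of 10 with 3 rises and 3 falls. HIS4 and HIS1 fell by 1.20 and 0.74, of 7 histidine genes. LYS20 and LYS21, which encode homocitrate synthase, fell by 1.17 and 0.84, of 8 lysine genes, and ILV6 and ILV1 fell by 0.88 and 0.69, of 12 branched-chain genes, with no rise in either list. GCN4, the activator of these pathways, rose by 0.43, from 12.70 and 12.52 to 13.00 and 13.08. ARO2, ARO9, ARO10, GCV3, AGX1, HIS4, CHA1 and ARG1 kept their calls with each array left out. ARO4 and ARG4 lost theirs without the first WT array (adjusted p = 0.0621 and 0.0686), ILV6 without the second (0.0504), and the other genes named here without 2 to 4 arrays (up to 0.184).

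Phosphate genes fell in 7 and rose in 2 of 27 cases, or 25.9% and 7.41% beside 8.49% and 9.95% of all genes. The median was −0.38, with medians of −0.54 and −0.17 by experiment. PHO8, the vacuolar alkaline phosphatase, read 9.28 and 8.80 in WT and 7.67 and 7.80 in the double deletion, and kept its call with each array left out, as did GIT1. VTC3, of the polyphosphate polymerase, fell by 1.19, with 8.73 and 9.81 on the double-deletion arrays, and PHM8 rose by 1.07. VTC3 lost its call without either WT array or the first double-deletion array, and PHM8 without 3 arrays (adjusted p up to 0.179). In VTC3, as in PHO5, the first double-deletion array was the lower one. The list's 7 falls came to 9 without the second double-deletion array and to 3, 3 and 4 without the other arrays. PHO4, the activator of the pathway, fell by 0.71, and the call was lost with each array left out (adjusted p up to 0.0989).

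Smaller groups gave few calls, and in purine synthesis 14.3% of genes rose and 4.76% fell, beside 9.95% and 8.49% of all genes. PUT4, the proline permease, rose by 1.43 and VBA1, a vacuolar transporter of basic amino acids, fell by 1.46, of 16 permeases, and both kept their calls. ADE1, ADE2 and ADE17 of purine synthesis rose by 1.09, 0.99 and 0.95 while ADE12 fell by 0.78, of 21, and 1 or 2 rose with an array left out. ISU1, the scaffold for iron-sulfur clusters, rose by 1.03 and kept its call, and HMX1, heme oxygenase, rose by 1.35 but lost it without either WT array (adjusted p up to 0.0852). ADE2 lost its call without the first WT array (adjusted p = 0.0678), and ADE1, ADE17 and ADE12 without 3 or 4 arrays (up to 0.164). Genes of cell separation fell in 4 of 12 cases (0 to 2 with an array left out), among them SUN4 by 0.85 and EGT2 by 0.72, and SUN4 lost its call without the second WT array (adjusted p = 0.0609), EGT2 without any of the 4 (0.135). HO, which starts mating type switching, read 9.32 and 8.97 in WT and 8.26 and 7.02 in the double deletion, and its call was lost with 3 of the arrays left out (up to 0.184). STE18, a G protein subunit of the pheromone pathway, rose by 1.36 and kept its call. No histone gene of 4 tested passed, nor did any of 3 mitochondrially encoded genes.

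Of 23 small nucleolar RNA genes 9 fell and SNR51 rose, with a median of −0.56. Those 9 falls came to 6, 3, 5 and 7 without the first WT, second WT, first and second double-deletion array. Of 64 tRNA genes 7 fell and none rose, with a median of −0.19, a share near the 8.49% of all genes, and 0 to 3 fell with an array left out. SNR44, which lies within RPS22B, read 10.17 and 10.40 in WT and 7.83 and 7.996 in the double deletion, 5.19-fold lower (SE 0.15 on the log2 scale, adjusted p = 0.000552). SNR39, within RPL7A, fell by 1.80. The host genes fell less, RPS22B by 1.43 and RPL7A by 0.43, and SNR44 and SNR39 kept their calls with each array left out. SNR13, which is not such a guest, fell by 1.39 and RPR1, the RNA of RNase P, by 1.40. The protocol's handling of RNAs without a poly(A) tail is not given in the sources used here. RDN25-1 shows how far ribosomal RNA signal can swing between arrays of a group, with 8.42 and 12.83 in WT and 12.49 and 12.47 in the double deletion.

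**Figure D5:**
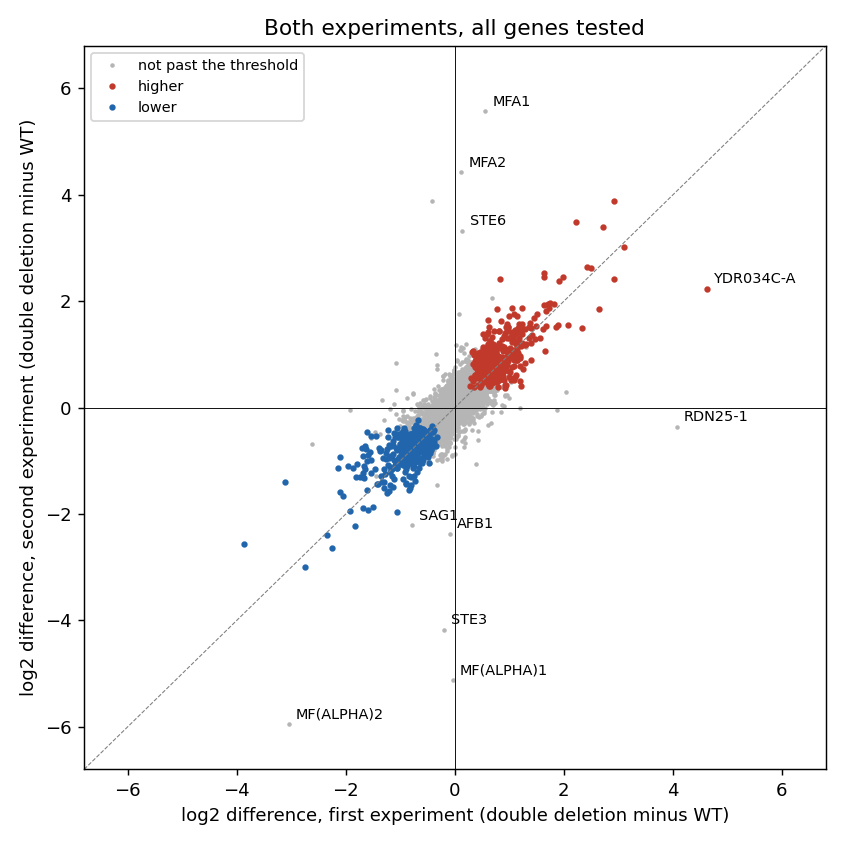
The log2 difference, double deletion minus WT, of each of the 4242 genes tested in the first experiment (horizontal axis) and the second (vertical axis), with 422 genes higher in red, 360 lower in blue and a dashed line where both are equal. Called genes have the same sign on both axes, which follows from arrays that do not overlap between the groups and is no separate result. MFA1, MFA2, STE3 and MF(ALPHA)1 lie far from 0 in the second experiment and nearer to it in the first, at 0.56 for MFA1.

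Against the FHL1 deletion, the double deletion differed in 1 gene of 4242, or 0.0236%. That gene was IFH1, at 8.91 and 8.92 in the FHL1 deletion, at least 9.75-fold lower in the double deletion. No gene was higher by limma. With the array set as a block 4 were, NCA3, PTK1, ATG15 and POP3, by 0.87 to 1.01 at an adjusted p of 0.0458. Without the block 214 genes had an unadjusted p under 0.05 in either direction. Apart from IFH1, the smallest of these p-values all had an adjusted p of 0.475. Among them, OLI1, a mitochondrially encoded ATP synthase subunit, was 1.52 higher (SE 0.29), with 12.36 and 11.67 against 10.86 and 10.12. PLB3, a phospholipase, was 0.96 higher and NCA3 0.95 higher, while MET17 was 0.66 and MXR1 0.75 lower. None of these passed, and a p that misses the threshold does not show that the strains are alike. PTK1 and PAC11 were 1.01 and 0.91 higher, SWH1 0.81 higher and PHO4 0.76 higher, all without passing.

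The FHL1 deletion had been set against the same WT arrays, so its values are given side by side and not as a second test. There 12.9% of genes rose and 8.46% fell, among them 13 of the 47 large subunit and 14 of the 34 small subunit ribosomal protein genes, with medians of −0.36 and −0.33. The list medians of the double deletion minus the FHL1 deletion were −0.17 and −0.16, against −0.02 over all genes, and no member passed that test. Of the 81 genes, 72 lay below 0 and 9 above. Both double-deletion arrays lay below both FHL1 deletion arrays in 29 of the 81, and above both in 5. In most of the 81, then, the arrays were not set apart in this way. The matching shares over all genes are not given here. RPL33B, for instance, read 9.67 and 10.03 with both genes deleted, below the 10.36 and 10.45 of the strain without FHL1. RPL31B went the other way, with 11.52 and 11.75 above 11.43 and 11.42, as did RPP2A, with 12.61 and 12.69 above 12.39 and 12.24. In the FHL1 deletion 10 cell wall genes and 25 respiratory genes rose, against 17 and 10 with both genes deleted. Whether these counts differ was not tested.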

How the data were processed

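The deposited log2 values, 1 per probe set and array, were used for all 6 arrays. The scale was inferred from the values, and the authors' summarization and normalization steps are not given in the sources consulted. Deposited array medians lay between 7.69 and 7.77. Groups came from the sample titles. Names came from the platform annotation: 6504 probe sets had 1 gene, 328 several and 2503 none, and all 6504 matched the reference annotation. Each array's median over the 6504 was subtracted and their mean added back, a floor was set at the 10th percentile (5.63), and the dimmest 25% of genes, 1414, were dropped to leave 4242.

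The model was fitted in limma 3.58.1 (R 4.3.3), using lmFit on 6 arrays with a mean for each group and eBayes with a trend, which left 3 residual degrees of freedom. Benjamini-Hochberg adjustment ran over 4242 genes with a threshold of 0.05. SE is the model's. A gene at the floor has a bound, computed from the other group's mean over the floor. The fit was tested on simulated data. The median absolute difference between the 2 arrays was 0.18 in WT and 0.19 in the double deletion.

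The members, gene lists and tests were chosen with earlier results of these data known, and lists are described by counts and medians without a test. Genes named are FHL1, IFH1 and HIS3, the 15 largest rises and 15 largest falls among called genes with arrays that do not overlap, up to 5 called members with the largest difference from each list, mating type markers, chromosome neighbours, and the 10 genes with the smallest p against the FHL1 deletion. Others, such as list members that did not pass, MET30, MRP8, UTR2, CTT1, WSC2 and small RNA genes, were chosen after their values were seen. Alternatives were other scalings, floors, filters, probe set rules, samples, blocks, no trend, and each array left out. Promoter motifs were not analysed here, and no coordinates are given because the files name no genome build.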

Additional observations from a re-analysis of the deposited data

Results flagged for a closer look

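Probe sets that name several genes or none stood outside the gene tests. Of 2078 such probe sets, fitted apart in limma, 12 were higher and 37 lower in the double deletion than in WT. That fit had its own filter, trend and adjustment, so its counts are not on the footing of the gene counts. Among the 311 that name several genes 3 were higher and 5 lower, and among the 1767 that name none 9 were higher and 32 lower. What these probe sets measure was not analysed here.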

How the results depend on the processing

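The counts of 422 rises and 360 falls stayed within 1.5 times under the deposited scaling (523 and 269), quantile normalization (391 and 367), medians without ribosomal protein genes or over 1 probe set per gene (377 and 398, chosen after seeing the data), other floors, the 50% dimmest left out, probe set means, only the 4 arrays and no trend. They fell to 240 and 221 with no filter on dim genes, and rose to 823 and 765 with the array set as a block. Leaving out 1 array gave 80 to 178 rises and 77 to 153 falls. Against the FHL1 deletion, 4 genes were higher with the array set as a block, and the number lower was 0 with the 50% dimmest left out, which drops IFH1 from the test, and 1 to 2 with 1 array left out. With the experiment number as a replicate block, 164 rose and 151 fell on 6 arrays, and 783 and 706 on the 4 arrays compared. The deviations of same-numbered arrays correlated at 0.42 (WT and double deletion), −0.38 (WT and FHL1 deletion) and −0.64 (FHL1 and double deletion), so the numbers were not taken as pairs; crossing the FHL1 deletion numbers turns all 3 positive, and that crossed pairing is the array set. None of the 167 named calls changed direction in an alternative that tested it, whereas STE3 (−2.19) and MF(ALPHA)1 (−2.58), which did not pass, turned to 0.14 and 0.36 without the second double-deletion array. Of the 167, 10 were lost with the deposited scaling, 8 with quantile normalization, 75 with no filter, 71 with the replicate block on 6 arrays and 72 to 99 without 1 array, and 59 held with each of the 4 arrays left out. The causes were not tested. With 2 arrays a group, the median spread of 0.18 to 0.19 between arrays limits what small differences can show.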
